A study of Mus musculus with 8 samples.

Results

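Motor neurons were compared with white matter in the lumbar spinal cord of mice that model spinal muscular atrophy (SMA). The comparison used 4 RNA-seq libraries, 2 of captured motor neurons and 2 of captured white matter, and it covered every gene with at least 1 RPKM in at least 2 of these 4 libraries. RPKM divides the reads of a gene by the length of its model and by the reads of the library. In all, 13186 of the 23278 genes in the tables met that rule. The SMA mice were of the FVB/N strain, carried 2 alleles each of the human SMN2 transgene and of the SMNΔ7 transgene, lacked mouse Smn and were sampled on postnatal day 1. WT mice of that strain and age gave 2 libraries of each region, and these 4 entered only the shared estimate of spread and the comparison between genotypes. Regions were cut out by laser from hematoxylin-stained sections, motor neurons by their form and position and white matter as a whole. The white matter libraries therefore hold every cell of that tissue, and a motor neuron library can hold pieces of the cells around each cell body. The labels name no animals, so p-values measure the spread between libraries only, and regions of the same animal could not be paired.

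Motor neurons of the ventral horn make acetylcholine, send long axons to muscle and are the cells lost in SMA, a disease of too little SMN protein. SMN helps to load Sm proteins onto small nuclear RNAs. White matter holds the axons of neurons that lie elsewhere, oligodendrocytes that wrap these axons in myelin, astrocytes and microglia. Around birth its oligodendrocytes range from dividing precursors to cells that make their first myelin.

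Smn1, the targeted gene, was listed at 0 in all 4 SMA libraries. In WT it read 6.82 and 2.93 RPKM in motor neurons and 5.30 and 14.3 RPKM in white matter. The read denominators worked out from the RPKM steps were 81.7 and 82.4 M reads for SMA motor neurons and 96.8 and 102.8 M for SMA white matter. Ribosomal RNA assigned to Rn45s made up 22.4 and 33.4% of the summed RPKM in motor neurons and 19.4 and 20.8% in white matter. The SMA motor neuron replicates were the least alike of the 4 pairs, with a correlation of 0.885 across genes, which are not independent replicates, against 0.935 to 0.965 in the other pairs. Xist, the RNA of the inactive X chromosome, was at 17.9 and 37.0 RPKM in replicate 1 of motor neurons and white matter and at 0.00203 and 0.0581 in replicate 2. Each region thus held 1 library with and 1 without Xist, in the same balance.

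In total 4398 genes differed between the regions, 33.4% of those tested, of which 1931 (14.6%) were higher and 2467 (18.7%) lower in motor neurons. Calls come from limma on log2(RPKM + 1), a scale on which the differences of low genes are understated, with a Benjamini-Hochberg adjusted p under 0.05. The model used the spread of all 8 libraries. In each of the 1931 and 2467 called genes the 2 libraries of 1 region lay wholly above those of the other. This was so for 27% of all genes tested on the higher side and 37.4% on the lower side. A remark that the libraries of a called gene did not overlap therefore adds nothing to its call. A gene can enter the test through the region where it is high, so the counts over gene lists given here are descriptions, to be read against the 14.6% called higher and 18.7% called lower over all genes. A list whose counts lie near these shares shows nothing particular to its members. Fitted to the 4 SMA libraries alone, the same difference was called for 2702 genes (20.5%), of which 1276 (9.68%) were higher and 1426 (10.8%) lower, and 2683 of them were shared with the fit of 8. In bulk captures, fewer cells of a type and less RNA per cell cannot be told apart.

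The differences were large. The median log2 difference was 1.61 over the genes called higher and -1.55 over those called lower, against -0.24 over all genes tested. A difference of at least 4 on the log2 scale was found for 58 genes higher and 33 lower in motor neurons. Median-of-ratios scaling shifted differences upward. It moved the median of all genes from -0.24 to -0.078, and the higher share of calls went from 43.9 to 52.7%. Leaving out 1 library moved the count most on the white matter side, to 2353 without SMA white matter replicate 1 and 2501 without replicate 2. Without SMA motor neuron replicate 1 the genes called lower rose from 2467 to 3770. In every setting run, 933 of the genes called higher and 842 of those called lower were called in the same direction.

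**Figure D1:**
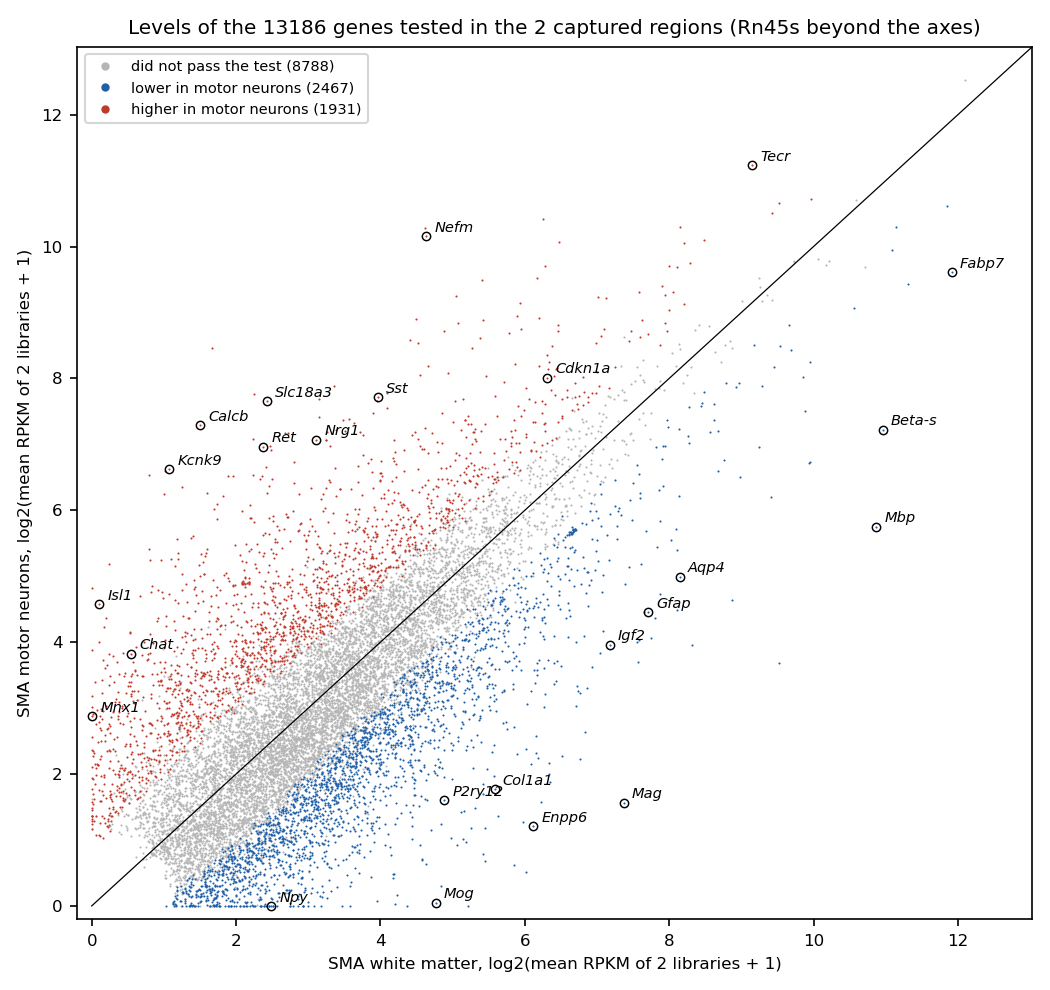
Each point is 1 of the 13186 genes, with log2(mean RPKM + 1) of the 2 SMA white matter libraries on the x axis and of the 2 SMA motor neuron libraries on the y axis. Red points (1931) were higher and blue points (2467) lower in motor neurons, grey points did not pass the test, and the circled names sit far from the line of equal level, with Isl1 and Mnx1 at the left edge and Npy and Mog at the bottom.

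**Figure D2:**
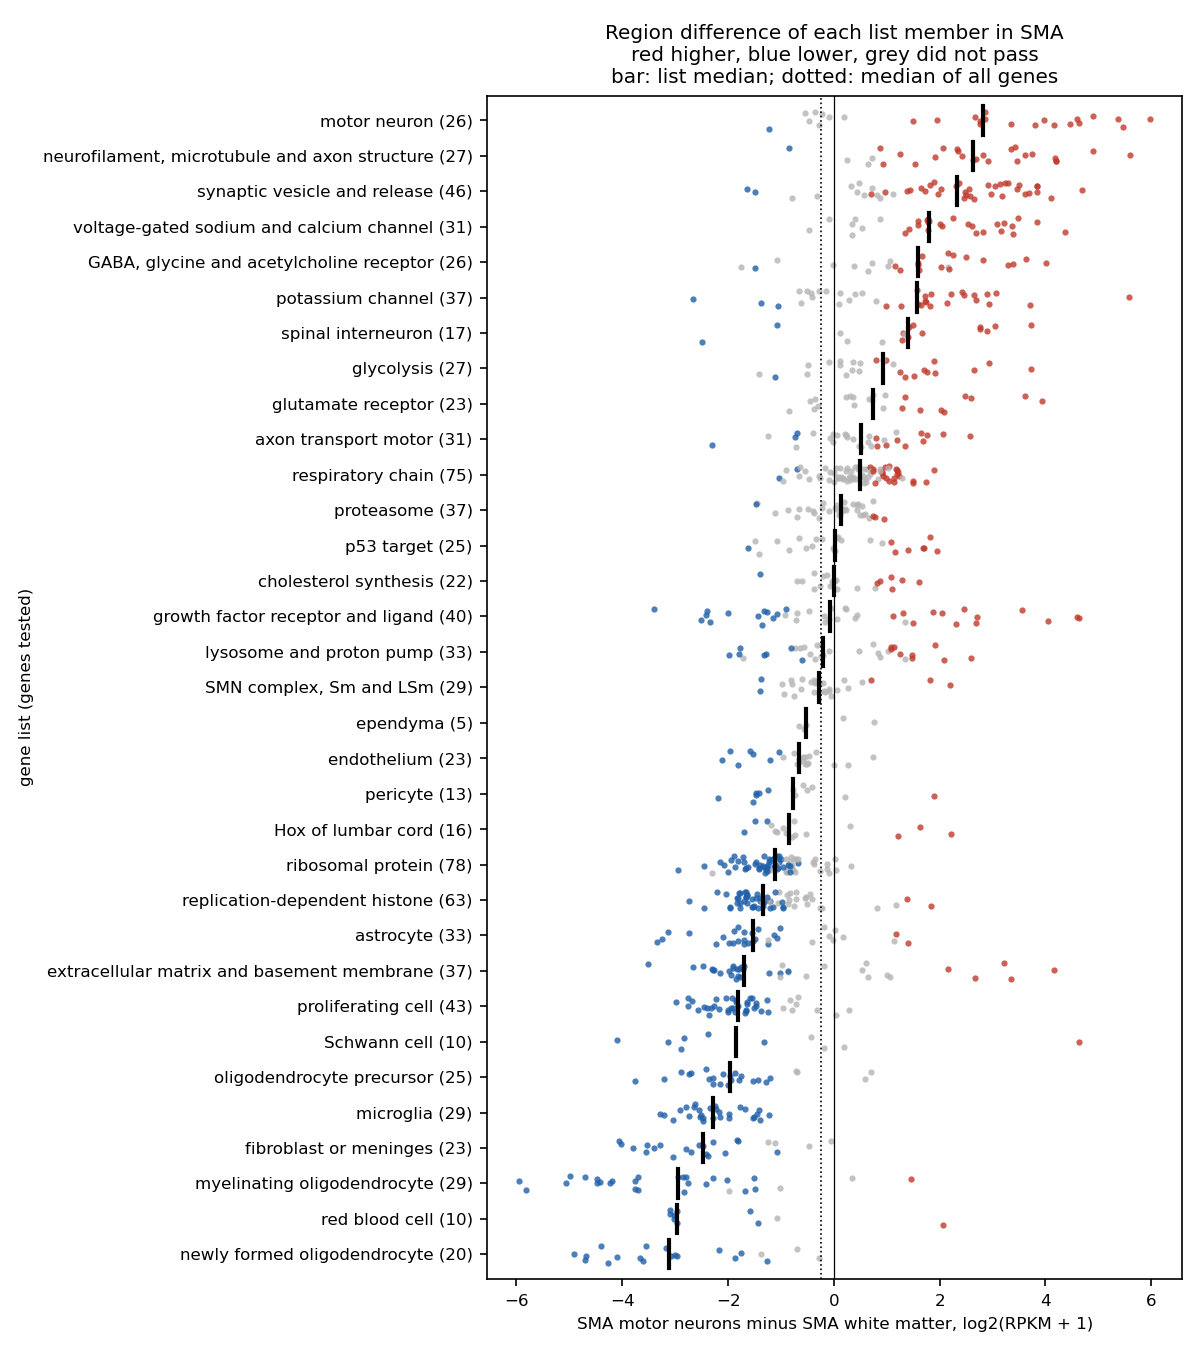
Points are the log2 differences of list members, jittered in height, with the list median as a bar and the median of all genes (-0.24) as a dotted line. Motor neuron genes (median 2.82), axon genes (2.63) and synaptic vesicle genes (2.33) lie highest, and newly formed oligodendrocyte genes (-3.12), red blood cell genes (-2.97) and myelin genes (-2.94) lowest.

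Motor neuron genes were the highest list. Of 26 tested, 18 were higher, 1 was lower and 7 did not pass, with a median of 2.82. Chat, which makes acetylcholine, was at 11.8 and 14.6 RPKM in motor neurons and at 0.905 and 0.00346 in white matter (log2 difference 3.35 ± 0.43 SE, limma adjusted p = 5.4e-04). The white matter values rest on 246 and 1 reads, so replicate 1 of white matter held a trace of the gene and replicate 2 almost none. Slc18a3, which fills vesicles with acetylcholine, read 180 and 221 RPKM against 6.70 and 2.05 (5.37 ± 0.39, adjusted p = 4.6e-05). For Slc5a7, the choline transporter, the values were 50.2 and 24.6 RPKM against 1.80 and 0.481 (4.16 ± 0.42, adjusted p = 1.8e-04). No motor neuron library of these 3 genes overlapped a white matter library.

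The transcription factors that fix motor neuron identity were close to absent from white matter. Isl1 was at 21.6 and 23.9 RPKM against 0.0982 and 0.0423 (4.47 ± 0.33, limma adjusted p = 5.0e-05). Mnx1 was at 5.79 and 6.94 RPKM against 0.0142 and 0 (2.87 ± 0.32, adjusted p = 3.0e-04). Prph, an intermediate filament of neurons with long peripheral axons, read 138 and 130 RPKM against 5.08 and 2.34 (4.90 ± 0.32, adjusted p = 3.5e-05). The peptide genes Calca and Calcb, both for calcitonin gene-related peptides, were higher by 5.47 ± 0.43 and 5.99 ± 0.45, and Calca differed between the motor neuron replicates (56.6 and 135 RPKM). Ret and Ngfr, receptors through which neurotrophic factors act on motor neurons, were at 127 and 121 RPKM against 4.46 and 3.90 and at 85.1 and 97.1 against 2.60 and 2.79 (adjusted p = 2.7e-05 for each).

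Uts2, the peptide urotensin II, had the largest difference of the 13186 genes and is named here after its values were seen. It was at 391.8 and 313 RPKM in motor neurons and at 4.32 and 0.0361 in white matter (7.22 ± 0.60, limma adjusted p = 7.5e-05). Both motor neuron libraries held large amounts, and the trace in white matter lay almost wholly in replicate 1, as for Chat. Vgf, a precursor of several neuropeptides, was at 88.2 and 96.0 RPKM against 1.08 and 0.388 (5.77 ± 0.39, adjusted p = 3.9e-05).

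Etv1, an ETS transcription factor of some motor and sensory neurons, was the exception in that list. It read 2.09 and 1.35 RPKM in motor neurons and 6.23 and 4.52 in white matter, lower by a log2 of -1.23 ± 0.35 (limma adjusted p = 0.0241). The call was lost in 6 settings, among them the fit of the 4 SMA libraries (adjusted p = 0.0844) and leaving out SMA motor neuron replicate 2 (0.0609), white matter replicate 1 (0.147) or replicate 2 (0.0621). In WT motor neurons Etv1 was at 7.83 and 7.25 RPKM (2703 and 2129 reads). WT white matter held 936 and 1589 reads, with read denominators of 86.9 and 96.7 M against 91.0 and 77.5 M in WT motor neurons. The region difference of Etv1 did not pass the limma test between genotypes, and neither did that of any other gene.

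**Figure D3:**
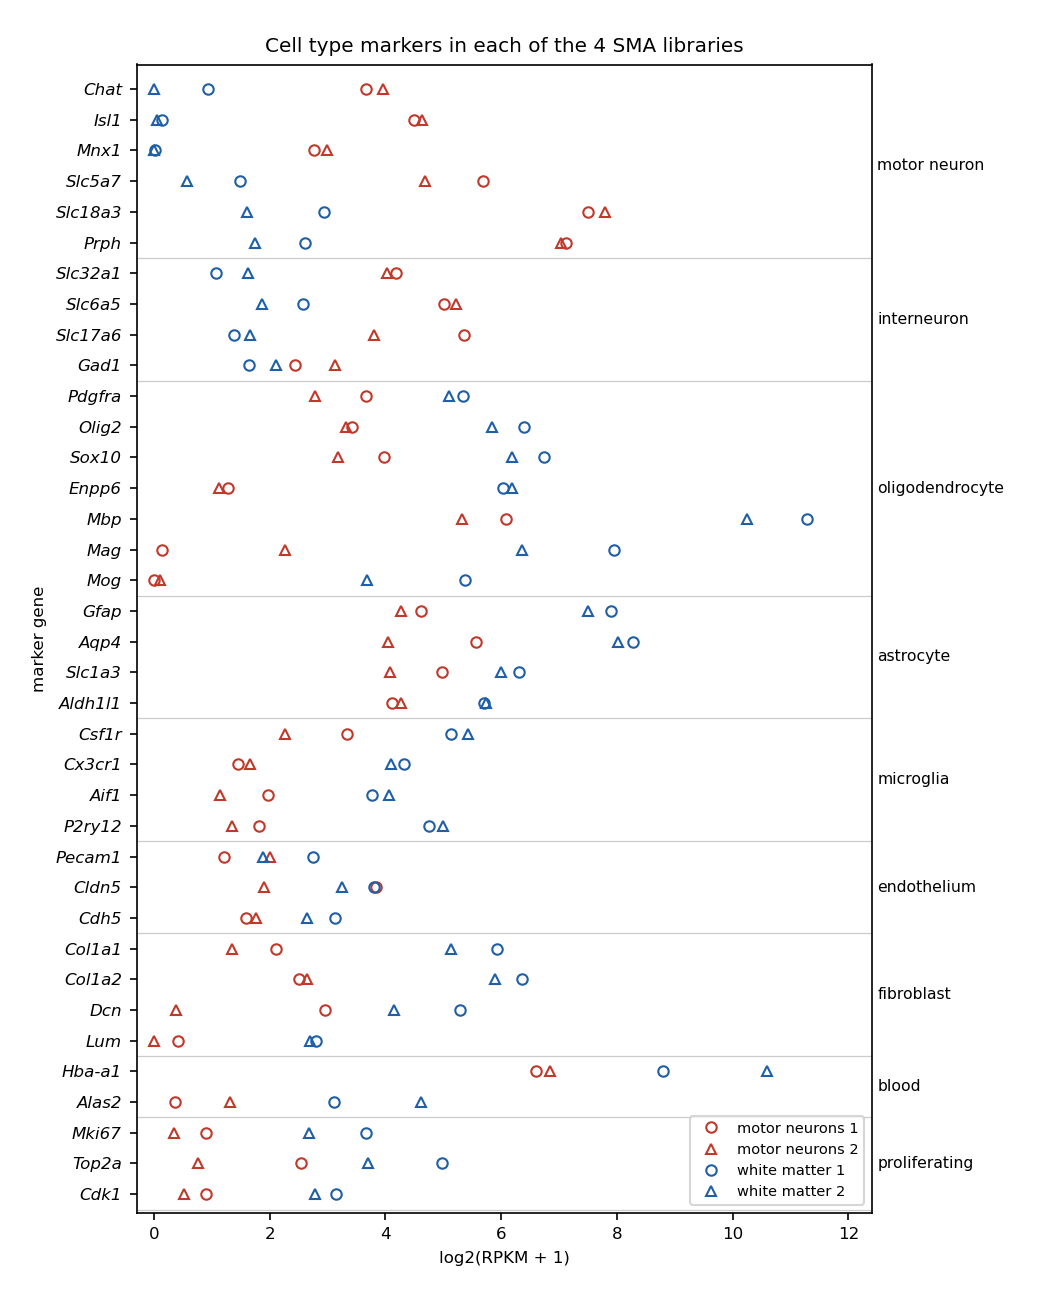
Log2(RPKM + 1) of cell type markers in each of the 4 SMA libraries, red for motor neurons and blue for white matter, circles for replicate 1 and triangles for replicate 2. Motor neuron markers lie far to the right in both red libraries, oligodendrocyte, astrocyte, microglia and fibroblast markers in both blue libraries, and the endothelial markers Pecam1 and Cldn5 overlap.

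Genes of spinal interneurons, the neurons next to motor neurons in the ventral horn, were also higher in the motor neuron captures. Of 17 tested, 11 were higher and 2 lower (median 1.40), with 7 higher in the fit of the 4 SMA libraries and 6 without white matter replicate 2. Slc6a5, the glycine transporter of inhibitory neurons, was at 31.4 and 36.4 RPKM against 4.998 and 2.66 (2.89 ± 0.54, limma adjusted p = 0.00365). Sst, the inhibitory peptide somatostatin, was at 136 and 284 RPKM against 18.9 and 10.3 (3.72 ± 0.49, adjusted p = 6.4e-04). In both genes each motor neuron library lay above each white matter library. Gad1, a GABA-synthesizing enzyme, did not pass (4.44 and 7.76 RPKM against 2.14 and 3.30, adjusted p = 0.142). Npy, a peptide of dorsal interneurons, went the other way, at 0 and 0 in motor neurons and 4.87 and 4.35 RPKM in white matter, and taking 3 reads in each library as the detection floor (counting error only) it was at least 68.7-fold lower. Summed over the list's 28 genes, the level was 282 and 415 RPKM in motor neurons and 54.1 and 38.8 in white matter. Sst alone gave 136 and 284 RPKM of the motor neuron sums and 18.9 and 10.3 of the white matter sums. The cells that these RNAs came from were not shown. The part of interneuron RNA in the neuronal differences that follow was not tested.

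Axon structure and synapse genes rose together in motor neurons. In the axon list 23 of 27 were higher and 1 was lower (median 2.63), and in the synaptic vesicle list 34 of 46 were higher and 2 lower (median 2.33). The neurofilament subunits set the calibre of axons. Nefm was at 1147 and 1135 RPKM against 31.9 and 15.7 (5.60 ± 0.33, limma adjusted p = 2.7e-05), Nefl at 1157 and 990 against 106 and 69.7 (3.62 ± 0.26) and Nefh at 104 and 78.1 against 5.50 and 2.79 (4.198 ± 0.39). The light and medium subunits were thus close to equal per length in motor neurons, and the heavy one was far lower. Sncg, gamma-synuclein, read 575 and 640 RPKM against 33.2 and 30.8 (4.204 ± 0.28, adjusted p = 3.5e-05). Tubb4a, a tubulin of oligodendrocytes as well as neurons, was the 1 member lower (192 and 190 RPKM against 382 and 308, -0.84 ± 0.21, adjusted p = 0.0133). Its call was lost without SMA white matter replicate 1 (0.0895), in the fit of the 4 SMA libraries (0.0522) and under median-of-ratios scaling (0.0581).

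Snap25, which drives vesicle fusion, was at 808 and 628 RPKM in motor neurons and 48.8 and 33.7 in white matter (4.10 ± 0.24, limma adjusted p = 2.7e-05). The vesicle protein Sv2c was at 76.6 and 75.5 RPKM against 2.33 and 1.71 (4.68 ± 0.36, adjusted p = 5.6e-05), and the calcium sensor Syt2 at 39.3 and 43.5 against 2.72 and 1.32 (3.85 ± 0.35, adjusted p = 1.1e-04). In all 3 genes both motor neuron libraries lay far above both white matter libraries. Rims2 and Unc13c, which ready vesicles for release, were the 2 lower members, at 3.84 and 1.48 RPKM against 11.6 and 8.14 and at 3.94 and 1.27 against 9.46 and 7.42. Neither passed in the fit of the 4 SMA libraries (adjusted p = 0.0571 and 0.0804) nor without white matter replicate 1 (0.0963 and 0.155), and Unc13c did not pass without motor neuron replicate 2 (0.118) or white matter replicate 2 (0.0905), with a pseudocount of 0.1 (0.0505) or with no filter (0.0734).

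Ion channels followed the same direction. Of 31 sodium, calcium and HCN channel genes, 24 were higher and 0 lower (median 1.80). Of 37 potassium channel genes, 21 were higher and 3 lower (median 1.58). Kcnk9, an acid-sensitive leak potassium channel, read 96.4 and 98.9 RPKM in motor neurons and 1.52 and 0.692 in white matter (5.58 ± 0.30, limma adjusted p = 2.7e-05), and its relative Kcnk3 read 34.4 and 38.1 against 2.47 and 1.34 (3.70 ± 0.32, adjusted p = 8.6e-05). These leak channels set the resting potential, and their library values did not overlap. Hcn4, a pacemaker channel, was higher by 3.85 ± 0.35, and Scn1a, a sodium channel of the spike-starting zone, by 3.21 ± 0.44. On the other side stood Kcnj10, the channel through which astrocytes and oligodendrocytes take up potassium, at 12.9 and 4.67 RPKM against 65.6 and 46.1 (-2.66 ± 0.40, adjusted p = 0.00123). The other 2 lower members, Kcnj16 and Kcnk2, did not pass in the fit of the 4 SMA libraries (adjusted p = 0.115 and 0.118) nor without either white matter library (0.207 and 0.0984 for Kcnj16, 0.180 and 0.103 for Kcnk2), and both lost the call without motor neuron replicate 2 (0.170 and 0.0974) or any 1 of the WT libraries.

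Among receptor genes, those for GABA, glycine and acetylcholine had 16 of 26 higher and 1 lower (median 1.59), and glutamate receptors 9 of 23 higher and 0 lower (median 0.75). Grin1, the subunit that all NMDA receptors share, was at 134 and 155 RPKM against 8.47 and 8.59 (3.93 ± 0.27, limma adjusted p = 4.1e-05). Glra1, the adult glycine receptor subunit, was at 30.6 and 22.9 RPKM against 2.25 and 0.491 (3.64 ± 0.45, adjusted p = 4.6e-04), and Chrm2, a muscarinic receptor, at 32.5 and 23.1 against 0.472 and 1.11 (4.01 ± 0.37, adjusted p = 1.2e-04). Gria2, the AMPA receptor subunit that blocks calcium entry, did not differ beyond its spread, with 58.3 and 21.4 RPKM in motor neurons and 16.5 and 27.2 in white matter (0.72 ± 0.44, adjusted p = 0.233). Its 2 motor neuron libraries lie on both sides of the higher white matter library. Gabra4 was the lower member, at 2.42 and 1.74 RPKM against 7.68 and 7.47 (-1.48 ± 0.31, adjusted p = 0.0065).

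Related genes that neurons and glia use for the same task were set side by side in 14 pairs, chosen with earlier results of these data known. The counts over pairs are descriptions, beside 14.6% called higher and 18.7% called lower over all genes. The neuronal member was higher in 10 pairs, the glial member was lower in 6, and both held in 4. Regulators of the sodium pump were one such case. Fxyd7, the neuronal form, was at 449 and 467 RPKM in motor neurons against 35.5 and 29.6 (3.78 ± 0.22, limma adjusted p = 2.7e-05), and Fxyd1, the glial form, at 20.4 and 23.6 against 65.8 and 71.2 (-1.60 ± 0.24, adjusted p = 0.00118). The pump's beta subunit passed only in its neuronal form, since Atp1b1 rose by 4.37 ± 0.25 and Atp1b2 did not pass (-0.42 ± 0.29, adjusted p = 0.286).

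Gap junctions and fusion proteins showed the same division. Gjd2, which joins neurons, was at 9.97 and 10.5 RPKM against 0.388 and 0.351 (3.04 ± 0.34, limma adjusted p = 2.9e-04), and Gja1, which joins astrocytes, at 20.9 and 14.7 against 72.2 and 57.5 (-1.82 ± 0.28, adjusted p = 0.00134). Snap23, the widely expressed relative of Snap25, was at 2.24 and 0.688 RPKM against 16.2 and 8.69 (-2.46 ± 0.47, adjusted p = 0.00424). Tubulins broke the pattern, as Tubb5 was also higher in motor neurons (825 and 830 RPKM against 304 and 243, 1.60 ± 0.19, adjusted p = 3.8e-04). Ldha, the glial member of the lactate dehydrogenase pair, was higher by 0.80 ± 0.24 (adjusted p = 0.031), and lost the call in 7 settings, including without motor neuron replicate 1 (0.064), white matter replicate 1 (0.0825) and replicate 2 (0.140). Kif5c and Kif5b, kinesin-1 heavy chains, did not pass (adjusted p = 0.886 and 0.0655).

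**Figure D4:**
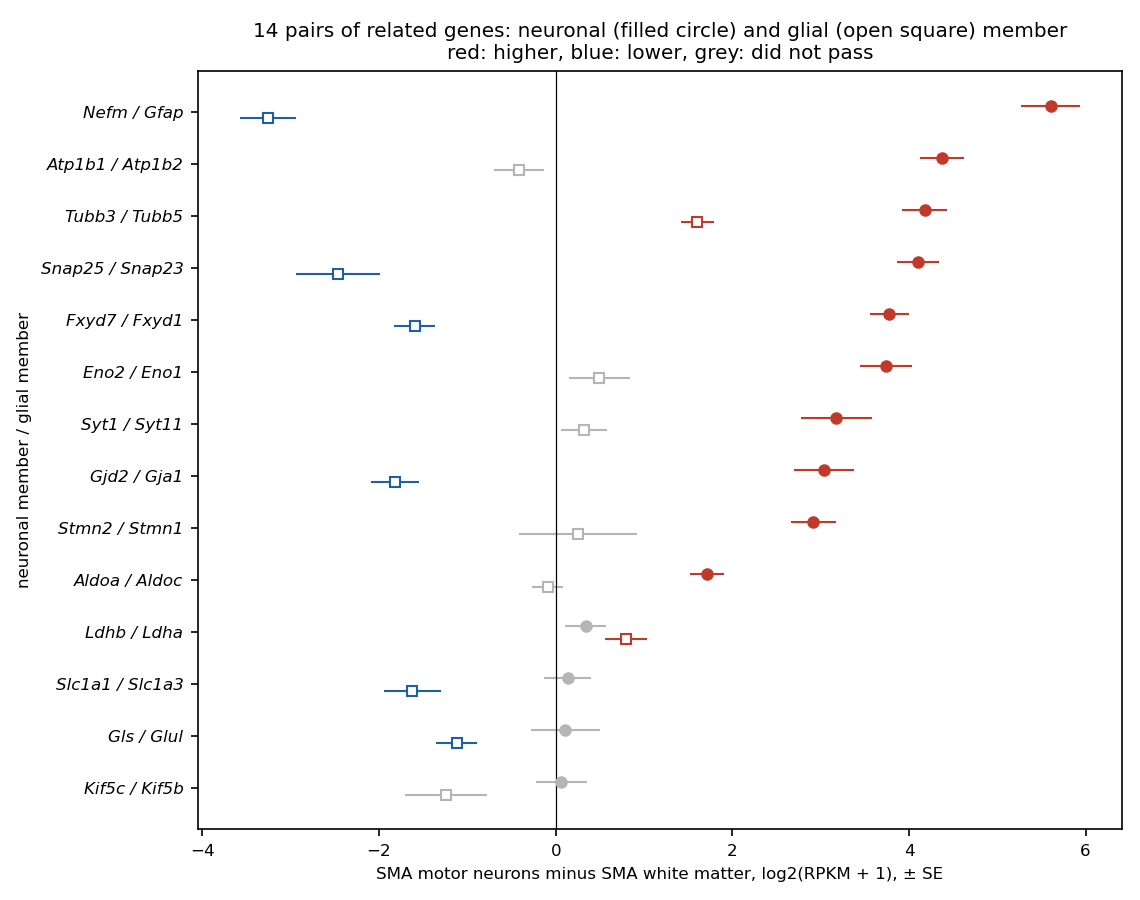
Log2 difference ± SE between SMA motor neurons and SMA white matter for the neuronal (filled circle) and the glial (open square) member of 14 pairs, red where higher, blue where lower and grey where the test was not passed. The neuronal member is higher in 10 pairs and the glial member lower in 6, and in the Tubb3 and Tubb5 pair both lie to the right of 0.

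Oligodendrocyte genes were lower in motor neurons at every stage of the lineage. Among precursor genes 21 of 25 were lower and 0 higher (median -1.97), among genes of newly formed oligodendrocytes 17 of 20 were lower and 0 higher (-3.12), and among myelin genes 25 of 29 were lower and 1 higher (-2.94). Pdgfra, the growth factor receptor of precursors, was at 11.6 and 5.92 RPKM in motor neurons and 39.4 and 33.3 in white matter (-1.99 ± 0.32, limma adjusted p = 0.00185). Olig2, a transcription factor of the whole lineage, was at 9.75 and 9.01 RPKM against 83.1 and 56.5 (-2.75 ± 0.28, adjusted p = 1.7e-04). Enpp6, found in oligodendrocytes about to myelinate, was at 1.43 and 1.18 RPKM against 64.7 and 72.3 (-4.91 ± 0.30, adjusted p = 2.9e-05), the smallest p on the white matter side. Gm98, the older symbol of Myrf, the transcription factor that starts the myelin program, was at 1.44 and 1.41 RPKM against 71.5 and 52.6 (-4.69 ± 0.33, adjusted p = 4.1e-05).

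Myelin genes had some of the widest differences, and their white matter replicates lay apart. Mbp, for myelin basic protein, was at 66.6 and 39.3 RPKM in motor neurons against 2506 and 1222 (-5.07 ± 0.49, limma adjusted p = 1.5e-04). Cnp, an enzyme of the cytoplasm of myelin, was at 24.7 and 23.2 RPKM against 562 and 368 (-4.19 ± 0.28, adjusted p = 3.5e-05). Mag, an adhesion protein of the layer next to the axon, was at 0.106 and 3.82 RPKM against 247 and 81.5 (-5.95 ± 0.75, adjusted p = 5.3e-04). White matter replicate 1 was above replicate 2 in each of these genes, and both were far above motor neurons. Mog, an outer myelin protein, was at 0 and 0.0711 RPKM (0 and 10 reads) against 40.6 and 11.8 (-4.48 ± 0.61, adjusted p = 7.6e-04). Summed over 33 myelin genes, the level was 5473 and 2942 RPKM in white matter and 280 and 198 in motor neurons. Ndrg1, a myelin-associated gene with roles in many cell types, was the member that was higher (8.88 and 11.8 RPKM against 3.23 and 2.90, 1.47 ± 0.34, adjusted p = 0.00943, and 0.0603 without white matter replicate 2).

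Astrocyte genes were lower as a group but were also found in the motor neuron captures. Of 33 tested, 23 were lower and 2 higher (median -1.53). Their sum was 3937 and 2302 RPKM in motor neurons and 10097 and 8000 in white matter. Fabp7 alone gave 1431 and 129 RPKM of the motor neuron sums and 4578 and 3138 of the white matter sums. Aldoc, an aldolase that did not pass, was also a large part, with a mean of 613 RPKM against 652. The sums therefore rest largely on a few abundant members. Aqp4, the water channel of astrocyte endfeet, was at 46.2 and 15.5 RPKM against 308 and 257 (-3.34 ± 0.45, limma adjusted p = 7.0e-04). Gfap, the filament of fibrous astrocytes, was at 23.5 and 18.2 RPKM against 238 and 179 (-3.26 ± 0.32, adjusted p = 1.4e-04), and Aldh1l1, an enzyme of all astrocytes, at 16.3 and 18.2 against 50.8 and 52.2 (-1.53 ± 0.24, adjusted p = 0.00158). Gfap thus fell further than Aldh1l1, a difference between genes that was not tested. Fabp7, a fatty acid binding protein of radial glia, was at 1431 and 129 RPKM in motor neurons against 4578 and 3138 (-3.14 ± 0.85, adjusted p = 0.0193). Replicate 1 of motor neurons held most of it, and the call was lost without white matter replicate 1 (0.114) or replicate 2 (0.0701), in the fit of the 4 SMA libraries (0.0594) and with no filter (0.0785). The higher members, Clu and Acsl6, encode a secreted chaperone and a fatty acid activating enzyme that neurons also express, and both lost the call without white matter replicate 2 (0.140 and 0.147), as Acsl6 did without motor neuron replicate 1 (0.0558) and in the fit of the 4 SMA libraries (0.0603).

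All 29 microglia genes tested were lower in motor neurons (median -2.29), 26 of them also in the fit of the 4 SMA libraries. P2ry12, the nucleotide receptor of resting microglia, was at 2.52 and 1.54 RPKM against 25.9 and 31.0 (-3.29 ± 0.37, limma adjusted p = 3.2e-04). Csf1r, the receptor they need to survive, was at 9.13 and 3.80 RPKM against 34.0 and 41.9 (-2.47 ± 0.37, adjusted p = 0.00131). No library of motor neurons reached a white matter value in either gene. C1qa, a subunit of complement C1q, differed less, with 5.84 and 5.26 RPKM against 15.7 and 16.7 (-1.39 ± 0.43, adjusted p = 0.0326). Its call was lost without SMA motor neuron replicate 2 (0.0597), white matter replicate 1 (0.121) or replicate 2 (0.140), or either WT white matter library (0.0569 and 0.0566), and with a pseudocount of 0.1 (0.104) or no filter (0.0705). Crybb1, a crystallin gene of neonatal microglia, was at 0 and 0.0417 RPKM against 18.4 and 16.3 (-4.17 ± 0.32, adjusted p = 5.4e-05). H2-Ab1, an antigen-presenting class II gene chosen here after its values were seen, was listed at 0 in both motor neuron libraries. In white matter it was at 34.1 and 37.8 RPKM. By the floor of 3 reads (counting error only) H2-Ab1 was at least 1173-fold lower in motor neurons. This was the largest such ratio among tested genes listed at 0 in both libraries of a region. The floor leaves out the spread between libraries.

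Most genes of fibroblasts and meninges were lower in motor neurons, and the vessel lists had smaller counts. Of 23 endothelial genes 7 were lower, beside 18.7% called lower over all genes, or 3 without white matter replicate 1, and Pecam1 and Cldn5, junction proteins of vessel walls, did not pass (limma adjusted p = 0.298 and 0.388). Pericyte genes had 1 of 13 higher and 6 lower, with 3 lower without motor neuron replicate 2 and 1 and 2 without white matter replicates 1 and 2. Genes of fibroblasts and meninges had 19 of 23 lower and 0 higher (median -2.47), or 12 without white matter replicate 1. Col1a1, a fibrillar collagen chain, was at 3.30 and 1.54 RPKM against 59.7 and 34.0 (-3.80 ± 0.40, adjusted p = 2.2e-04), and Col3a1, another such chain, at 1.05 and 0.0458 against 30.6 and 16.9 (-4.02 ± 0.46, adjusted p = 3.2e-04). Igf2, a growth factor of meninges and vessels, was at 22.2 and 6.97 RPKM against 136 and 152 (-3.41 ± 0.44, adjusted p = 5.8e-04). In these 3 genes both white matter libraries lay above both motor neuron libraries.

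Schwann cell and blood genes were uneven between the white matter replicates. Mal, a myelin membrane protein of Schwann cells that oligodendrocytes share, was at 0.291 and 0.0262 RPKM in motor neurons and 12.3 and 4.12 in white matter (-2.84 ± 0.60, adjusted p = 0.0065, and 0.0609 without white matter replicate 1). Hba-a1, an alpha-globin gene, was at 95.9 and 115 RPKM in motor neurons and 443 and 1538 in white matter (-2.97 ± 0.59, limma adjusted p = 0.00501), and globin genes share reads with near-identical copies. Replicate 1 of white matter was high in Mal and replicate 2 in Hba-a1. Of 10 red blood cell genes tested, 8 were lower and 1 was higher. Of 10 Schwann cell genes tested 6 were lower, with 4 in the fit of the 4 SMA libraries, and 1 was higher, the motor neuron receptor Ngfr. The lower genes include Mal, Sox10 and Fabp7, which are also on the oligodendrocyte or astrocyte lists. Pmp2 and Egr2, defining Schwann cell genes, fell under the filter. The count therefore does not separate Schwann cells from other glia. The part of Schwann cell and blood RNA in the white matter levels was not tested.

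Proliferation genes were lower in motor neurons, and fewer passed without 1 white matter library. Of 43 tested 35 were lower and 0 higher (median -1.81), 24 in the fit of the 4 SMA libraries and 9 without white matter replicate 1. The summed level was 603 RPKM in that library, 313 in replicate 2 and 124 and 85.9 in motor neurons. Mki67, a nuclear protein of dividing cells, was at 0.863 and 0.266 RPKM against 11.7 and 5.44 (-2.56 ± 0.42, limma adjusted p = 0.00183). Ccnb2, a mitotic cyclin, was at 0.501 and 1.02 RPKM against 14.1 and 8.25 (-2.76 ± 0.48, adjusted p = 0.0025). Top2a, the topoisomerase that untangles chromosomes, was at 4.82 and 0.693 RPKM against 30.6 and 11.99 (-2.69 ± 0.60, adjusted p = 0.00815, and 0.080 without white matter replicate 1). White matter replicate 1 was the highest library in all 3 genes.

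The promoters of the proliferation genes were read for the CCAAT box, which the factor NF-Y binds and which is known from mitotic promoters. The list was made of known genes of cell division. Motif shares therefore describe the members of the list and say nothing about the region difference. RefSeq windows of 300 bases around the gene start (GRCm38.p6, 250 upstream and 50 downstream) were at hand for 38 of the proliferation genes and 9165 of the genes tested. CCAAT on either strand was found in 29 of 38 windows (76.3%), against 38.6% of the 9165. The motif TTTGAA, the core of the cell cycle homology region, was found on either strand in 19 of 38 (50%) against 11.0%. Among all tested genes called lower, CCAAT was in 40.5% of windows and TTTGAA in 14.3%. A match is a description of letters, not a binding site. The 150 bases just before the start are shown for Top2a and Ccnb2, named above, with CCAAT on either strand in capitals. They lie at chr11:99024190-99024339 and chr9:70421555-70421704 in GRCm38.p6, both on the minus strand, a build other than the mm9 of the deposited tables.
Top2a: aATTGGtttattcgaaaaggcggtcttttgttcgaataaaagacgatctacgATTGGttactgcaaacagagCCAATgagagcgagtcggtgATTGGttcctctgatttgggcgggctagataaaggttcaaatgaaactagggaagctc
Ccnb2: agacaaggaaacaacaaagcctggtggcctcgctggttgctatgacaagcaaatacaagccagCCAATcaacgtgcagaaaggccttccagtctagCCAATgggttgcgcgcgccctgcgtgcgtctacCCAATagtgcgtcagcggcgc

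The stretch of Top2a holds 4 such boxes and that of Ccnb2 holds 3, against 2 each for Cdk1 and Cdca3 and 1 for Mki67. Replication-dependent histone genes, which are copied only while DNA is made, went with the proliferation genes. Of 63 tested 41 were lower and 2 higher (median -1.35), with 25 lower in the fit of the 4 SMA libraries and 8 without white matter replicate 1. Hist1h1b, a linker histone, was at 20.3 and 11.7 RPKM against 138 and 87.1 (-2.75 ± 0.35, limma adjusted p = 5.6e-04). Ribosomal protein genes had 48 of 78 lower and 0 higher (median -1.11), but 22 without either white matter replicate. Rplp0, of the ribosomal stalk, was at 22.0 and 23.2 RPKM against 76.4 and 97.4 (-1.89 ± 0.27, adjusted p = 0.00108). Histone and ribosomal protein genes share reads with copies and pseudogenes, so single values are uncertain.

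Energy genes leaned toward motor neurons with small differences. Among 75 nuclear respiratory chain genes 22 were higher and 2 lower (median 0.49), 9 higher without white matter replicate 2 and 6 lower without motor neuron replicate 1. Cyc1, cytochrome c1, was at 246 and 363 RPKM against 87.0 and 72.3 (1.90 ± 0.25, limma adjusted p = 6.9e-04). Among 27 glycolysis genes 12 were higher and 1 lower (median 0.92), or 4 lower without motor neuron replicate 1. Eno2, the enolase of neurons, was at 226 and 176 RPKM against 18.2 and 10.7 (3.74 ± 0.30, adjusted p = 5.9e-05), and Slc2a3, the neuronal glucose transporter, at 63.0 and 38.3 against 6.41 and 7.70 (2.64 ± 0.32, adjusted p = 4.6e-04). Hk2, a hexokinase, was the lower member (0.213 and 0.0749 RPKM against 1.31 and 1.64, adjusted p = 0.0231), and did not pass without motor neuron replicate 2 (0.0737) or white matter replicate 1 (0.0634) or replicate 2 (0.0988), nor in the fit of the 4 SMA libraries (0.0529) or under quantile normalization (0.127). Cholesterol synthesis genes, whose product myelin needs in bulk, were not lower as a group. Of 22 tested 6 were higher and 1 was lower, with a median of -0.0029 that turned positive under median-of-ratios scaling (0.18). Sqle, which makes squalene epoxide, was higher (139 and 93.0 RPKM against 51.8 and 41.2, 1.28 ± 0.26, adjusted p = 0.00518). The higher count was 3 without white matter replicate 1 and 2 without replicate 2, and the lower count 3 without motor neuron replicate 1.

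Targets of p53, a factor studied in the death of SMA motor neurons, were counted as well. Of 25 tested 7 were higher and 1 lower, beside 33.4% called over all genes, with a median of 0.027 that changes sign between settings. Cdkn1a, the cell cycle inhibitor p21, was at 269 and 245 RPKM in SMA motor neurons and 78.9 and 77.2 in SMA white matter (1.71 ± 0.27, limma adjusted p = 0.00151). In WT it was at 60.0 and 58.4 RPKM in motor neurons and 21.0 and 36.0 in white matter. Both SMA regions were above both WT regions, and the region difference did not pass the test between genotypes (0.63 ± 0.38, adjusted p = 0.872). Phlda3, an Akt inhibitor, and Plk3, a stress kinase, were higher by 1.94 ± 0.42 and 1.82 ± 0.40, and both lost the call without white matter replicate 2 (0.0571 and 0.0661). The higher count was 3 without white matter replicate 1, 2 without replicate 2 and 4 without either WT white matter library, and 7 genes were lower without motor neuron replicate 1.

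Most Sm, LSm and SMN complex genes did not pass. Of 29 tested 3 were higher, 2 lower and 24 did not pass, beside 33.4% called over all genes (median -0.28), with 5 lower without motor neuron replicate 1. Snrpn, a neuronal Sm protein from an imprinted locus, was at 195 and 134 RPKM against 41.2 and 28.9 (2.20 ± 0.27, limma adjusted p = 4.4e-04), with motor neuron values above white matter in both replicates. Lsm11, of the particle that trims histone RNA, was at 14.2 and 10.8 RPKM against 3.48 and 2.21 (1.82 ± 0.36, adjusted p = 0.00481). Of 37 proteasome genes 3 were higher and 1 was lower by limma, and leaving out 1 library gave 0 to 6 higher and 0 to 7 lower, the highest counts without SMA motor neuron replicates 2 and 1.

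Motors of axonal transport had more genes higher than lower. Of 31 tested 10 were higher and 3 lower (median 0.50), with 6 and 1 in the fit of the 4 SMA libraries. Without motor neuron replicate 2, 17 were higher and 1 lower, and without white matter replicate 2, 5 were higher and 1 lower. The kinesin heavy chain Kif5a was at 61.9 and 66.9 RPKM against 23.2 and 15.9 (1.69 ± 0.26, limma adjusted p = 0.00147), and its light chain Klc2 at 41.9 and 69.7 against 11.4 and 5.88 (2.57 ± 0.37, adjusted p = 0.00106). The dynein chain Dync1i1, a neuronal intermediate chain, was at 10.02 and 10.3 RPKM against 1.94 and 1.42 (2.06 ± 0.34, adjusted p = 0.00185). Nde1, a dynein regulator needed in dividing progenitors, was lower (1.73 and 1.41 RPKM against 12.1 and 11.4, -2.31 ± 0.35, adjusted p = 0.00131). The vesicle kinesin Kif1a was at 199 and 180 RPKM against 347 and 273 (-0.70 ± 0.22, adjusted p = 0.0344). That call was lost in 9 settings, among them without motor neuron replicate 2 (0.0872), white matter replicate 1 (0.188) or replicate 2 (0.050) or either WT motor neuron library (0.0553 and 0.0555).

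Most extracellular matrix genes were lower in motor neurons. Of 37 tested 22 were lower and 5 higher (median -1.71), with 9 higher under median-of-ratios scaling. Tnc, tenascin C of immature astrocytes, was at 8.54 and 8.29 RPKM against 122 and 93.9 (-3.52 ± 0.24, limma adjusted p = 3.9e-05), and Ncan, a proteoglycan of astrocytes and neurons, at 109 and 70.5 against 594 and 411 (-2.48 ± 0.28, adjusted p = 2.9e-04). The link proteins Hapln1 and Hapln4, which build nets around neurons, were higher, at 6.70 and 6.73 RPKM against 0.397 and 0.0577 and at 16.1 and 19.8 against 1.25 and 0.837. Both pairs of libraries were apart (adjusted p = 5.0e-04 and 2.3e-04).

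Ligands and receptors of growth factor pathways went in both directions. Of 40 tested 13 were higher and 13 lower (median -0.076, and 0.11 under median-of-ratios scaling), with 6 lower without white matter replicate 1. Nrg1, a neuronal signal for myelinating cells and muscle spindles, was at 138 and 129 RPKM in motor neurons against 10.4 and 4.82 (4.04 ± 0.34, limma adjusted p = 7.6e-05). Its receptor genes Erbb2 and Erbb3 were on the white matter side, at 0.140 and 2.09 RPKM against 11.0 and 7.36 and at 0.579 and 0.239 against 4.29 and 1.28. Both calls (adjusted p = 0.0116 and 0.0446) were lost without white matter replicate 1 (0.0863 and 0.276). Erbb3 lost its call in 12 settings in all, also without motor neuron replicate 2 (0.124) or any 1 of the WT libraries (0.0535 to 0.0712). Gfra1, the co-receptor through which GDNF acts on Ret, was at 58.6 and 63.9 RPKM against 12.7 and 5.56 (2.71 ± 0.36, adjusted p = 6.4e-04). Fgfr2, a receptor of astrocytes and oligodendrocytes, was at 4.83 and 4.29 RPKM against 30.5 and 30.4 (-2.50 ± 0.28, adjusted p = 3.0e-04).

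Lysosome genes went both ways. Of 33 tested 9 were higher and 7 lower, beside 14.6% and 18.7% of all genes (median -0.21), with 6 and 4 in the fit of the 4 SMA libraries, 4 lower without white matter replicate 1, and 5 higher and 4 lower without replicate 2. Only the 4 called members with the largest difference in each direction were named, so they do not describe the other called genes. The named higher genes are subunits of the proton pump that also fills synaptic vesicles. They include Atp6v1g2 at 112 and 129 RPKM against 20.4 and 17.6 (2.60 ± 0.24, limma adjusted p = 1.2e-04). Another, Atp6v0b, did not pass with no filter (1.48 ± 0.43, adjusted p = 0.0537), and its difference was 1.26 ± 0.49 without white matter replicate 2. The named lower genes are enzymes or transporters of the lysosome itself, such as Hexa, a hexosaminidase chain, at 3.85 and 4.78 RPKM against 17.3 and 17.4 (-1.79 ± 0.30, adjusted p = 0.00213).

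Hox genes, which mark position along the cord, had 3 of 16 higher and 3 lower, beside 14.6% and 18.7% of all genes (median -0.85). Hoxc10 and Hoxd10, of lumbar motor neurons, were at 29.3 and 14.4 RPKM against 6.90 and 5.14 and at 10.8 and 1.95 against 0.393 and 0.174 (limma adjusted p = 0.0289 and 0.0336). Hoxc6, of more rostral cord, was at 1.82 and 3.20 RPKM against 12.8 and 8.14 (-1.71 ± 0.43, adjusted p = 0.0145). Their libraries did not overlap, yet 0 genes of either direction were called without white matter replicate 1, and 0 higher and 1 lower without replicate 2. Without motor neuron replicate 1 the counts were 1 higher and 6 lower. Hoxd10 was called under 8 of 18 alternatives and Hoxc10 under 14.

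MicroRNA genes were called in both directions, at a share not far from that over all genes. Of 168 tested 31 were higher and 34 lower, 38.7% called against 33.4% of all genes. These libraries were not made for small RNA, so the values measure longer transcripts across the hairpin. Of the 147 genes with a RefSeq hairpin, 115 lie inside another gene on the same strand and 12 inside one on the other strand only, and the part of host transcripts was not tested. A few were chosen after their values were seen, because they are the best known for the cells captured here or lie in a host gene with one of the smallest p. Their mature sequences (RefSeq, GRCm38.p6) are given with the seed, bases 2 to 8, in capitals.
mmu-miR-218-5p, from Mir218-2 in Slit3: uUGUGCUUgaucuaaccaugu
mmu-miR-134-5p, from Mir134 in Mirg: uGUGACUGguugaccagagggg
mmu-miR-219a-5p, from Mir219-2: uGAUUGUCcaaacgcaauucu
mmu-miR-338-3p, from Mir338 in Aatk: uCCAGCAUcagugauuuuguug
mmu-miR-1897-3p, from Mir1897 in Sox2ot: uCAACUCGuucuguccggugag

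No 2 of these 5 share a seed. miR-218 is a microRNA of motor neurons, and Mir218-2 read 2.89 and 2.76 RPKM in motor neurons and 0 in both white matter libraries (limma adjusted p = 0.00147, highest 0.0638 over the alternatives). Mir218-1, the other gene of this microRNA, lies in Slit2 and did not pass, at 5.79 and 5.85 RPKM against 0.376 and 3.89 (1.39 ± 0.71, adjusted p = 0.155). The Mir218-2 host Slit3, a guidance ligand, was at 23.8 and 32.9 RPKM against 5.70 and 1.37 (2.86 ± 0.54, adjusted p = 0.00382). Mir134, of the imprinted Dlk1-Dio3 region, was at 146 and 142 RPKM against 0.582 and 10.5 (5.08 ± 0.83, adjusted p = 0.00184), and the noncoding host Mirg at 5.15 and 6.59 against 0.143 and 0.487 (2.39 ± 0.34, adjusted p = 9.7e-04). In both cases the hairpin and its host were on the motor neuron side.

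On the white matter side, miR-219 and miR-338 promote oligodendrocyte maturation. Mir219-2 was at 0 and 0.250 RPKM in motor neurons and 16.1 and 19.5 in white matter (-4.07 ± 0.39, limma adjusted p = 1.4e-04). Mir338 was listed at 0 in both motor neuron libraries and at 3.37 and 5.06 RPKM in white matter (adjusted p = 0.0012, highest 0.0549 over the alternatives). Its host Aatk, a kinase gene, did not divide the regions, with 21.6 and 27.4 RPKM against 30.5 and 14.9 (0.18 ± 0.41, adjusted p = 0.759). Mir1897 was at 2.17 and 3.84 RPKM against 73.1 and 86.6 (-4.36 ± 0.35, adjusted p = 6.5e-05) and its host Sox2ot, a noncoding transcript over the stem cell gene Sox2, at 1.17 and 1.35 against 48.8 and 36.6 (-4.26 ± 0.32, adjusted p = 5.0e-05).

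The question whether SMA alters the difference between the regions was tested as an interaction, the region difference in SMA minus that in WT. No gene of 13186 passed (0 called by limma, smallest adjusted p = 0.107, and 0 by voom on recovered reads), while 664 had an unadjusted p under 0.05, 75 of them with a higher and 589 with a lower difference in SMA. The median over all genes was -0.34, and -0.036 under median-of-ratios scaling. Without SMA motor neuron replicate 1, 26 genes passed, all lower. In WT the same test called 2576 genes higher (19.5%) and 1395 lower (10.6%) in motor neurons. Of the SMA calls, 1702 higher genes were also called in WT (88.1% of the SMA and 66.1% of the WT calls), as were 1233 lower genes (50.0% and 88.4%).

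**Figure D5:**
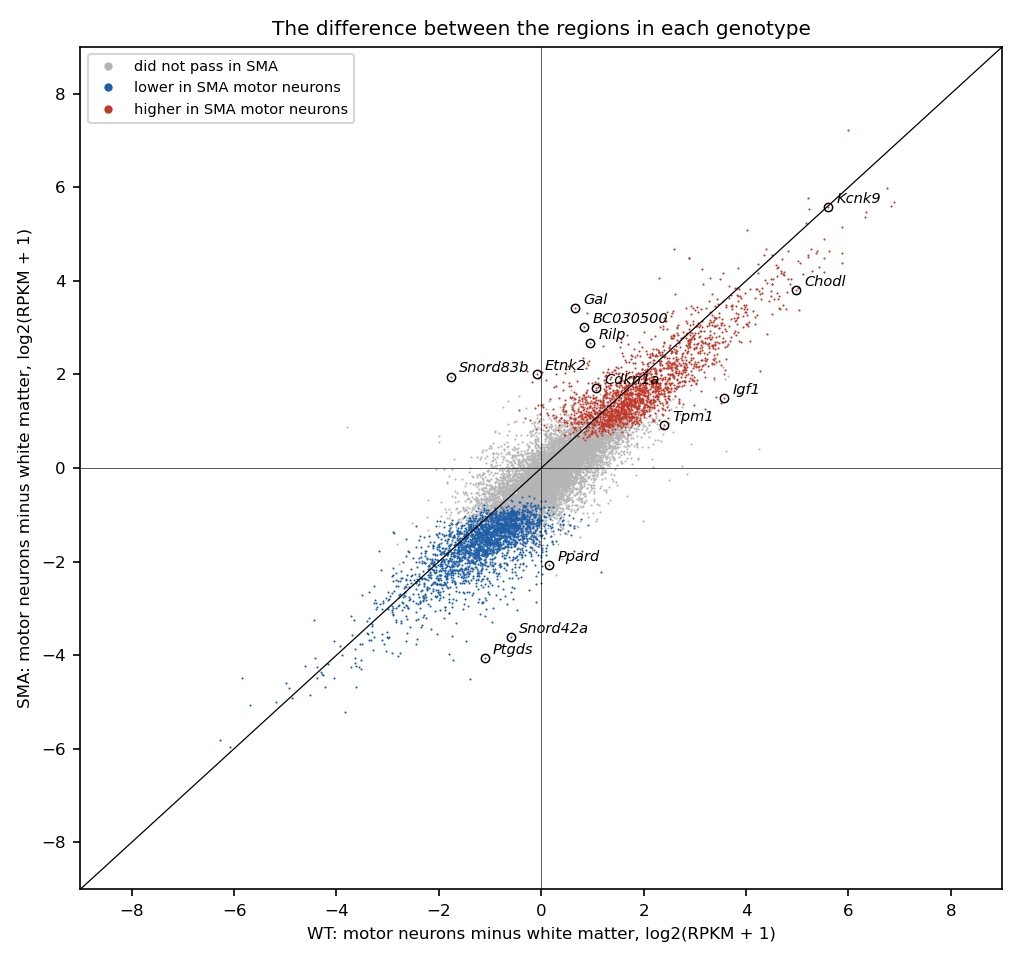
The log2 difference between motor neurons and white matter in WT (x axis) and in SMA (y axis) for 13186 genes, red where higher and blue where lower in SMA motor neurons. Kcnk9 lies near the line of equal difference, Gal and Rilp above it and Ptgds and Igf1 below it, and 0 genes passed the test of the difference between genotypes.

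Genes named for a small interaction p are given as values, and none of them passed. Mir453, a microRNA gene in Mirg and the lowest p of those given, was at 6.57 and 7.55 RPKM in SMA motor neurons against 5.67 and 4.51 in SMA white matter, and at 20.6 and 23.4 against 0.281 and 0.126 in WT (interaction -3.85 ± 0.45, limma adjusted p = 0.107). Gal, the neuropeptide galanin, was at 9.62 and 12.8 RPKM in SMA motor neurons and 0.0148 and 0.264 in SMA white matter, and at 2.70 and 2.62 against 2.29 and 0.621 in WT (interaction 2.75 ± 0.57, limma adjusted p = 0.872). Rilp, which links lysosomes to dynein, was at 7.30 and 5.004 RPKM against 0.0695 and 0.137 in SMA and 1.38 and 2.02 against 0.317 and 0.459 in WT (1.73 ± 0.47, adjusted p = 0.872). In both genes the SMA motor neuron libraries were the highest of the 8. Igf1, a growth factor of motor neurons and microglia, had 25.9 and 28.6 RPKM against 7.46 and 10.7 in SMA and 56.8 and 53.8 against 4.34 and 3.19 in WT (-2.07 ± 0.41, adjusted p = 0.872). Ptgds, a prostaglandin synthase of the meninges, had 18.4 and 5.61 RPKM against 174 and 202 in SMA. In WT it had 6.54 and 6.28 RPKM against 14.1 and 15.8 (-2.95 ± 0.61, adjusted p = 0.872). Fibroblast and meninges genes summed to 892 and 732 RPKM in SMA white matter and 294 and 353 in WT white matter. These sums include Ptgds itself, so they are not separate from its values. Chodl, which fast motor neurons express, is a member of the motor neuron list chosen here after its values were seen. It read 30.9 and 32.8 RPKM in SMA motor neurons and 81.1 and 77.3 in WT motor neurons, with white matter at 2.16 or less in all 4 libraries (interaction -1.17 ± 0.46, adjusted p = 0.872). The 1 gene called in opposite directions, the small nucleolar RNA gene Snord83b, was at 3.82 and 3.31 RPKM against 0 and 0.379 in SMA and 0 and 0.838 against 2.39 and 5.24 in WT (3.72 ± 0.61, adjusted p = 0.872), and its SMA call was lost without white matter replicate 1 (0.0658) and with voom on recovered reads (0.179).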

How the data were processed

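The deposited tables, 1 for each library, list RPKM values by gene symbol. Per the labels' protocols, sections of lumbar cord were stained with Mayer's hematoxylin and captured with a UV laser, RNA was purified with a column kit, and amplified cDNA was sheared and size-selected. The submitters' processing notes name TopHat, bedtools, DESeq and the mm9 genome. Tool versions, gene annotation, strand use and the rule for multiply mapped reads were not given in the sources used here, so overlapping, antisense and near-identical genes are uncertain. The 2 human transgenes were not analysed here. No per-sample column was left unused (0).

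Depth was recovered from the RPKM steps: 99.9885% of 17431 genes above 0 in at least 3 libraries had a length that gave whole reads in all libraries within 0.01 of a read. In 7 of 8 libraries the reads recovered on genes, Rn45s included, exceeded the denominator, for which no source gives the reason.

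The log2(RPKM + 1) values were fitted in limma 3.58.1 (R 4.3.3): 4 group means, 8 libraries, eBayes with trend, two-sided p-values adjusted by Benjamini-Hochberg over all 13186 genes, threshold 0.05. The model was tested on simulated data. Tables and figures used Python 3.11.15, numpy 2.4.6, pandas 2.3.3 and matplotlib 3.10.9. The 33 gene lists, the pairs and the comparison itself were chosen with earlier results of these data known. Genes named were the 12 with the smallest p and the 8 with the highest level per direction among those called, defining members of each list, up to 4 called members per list and direction, all pairs, and the 8 smallest interaction p per direction. Promoter windows were matched by symbol, the first listed window per symbol. A few named genes and 1 pair are not reported here.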

Additional observations from a re-analysis of the deposited data

How the results depend on the processing

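The count of 4398 genes stayed within a factor of 1.5 under another pseudocount, no filter, a filter over all 8 libraries, 3 other scalings, voom on recovered reads and the replicate block. Fitted to the 4 SMA libraries only it was 2702, with 1276 higher and 1426 lower. Leaving out 1 replicate at a time gave 2353 to 5641 genes in all, 1117 to 2239 higher and 1084 to 3770 lower. The difference between genotypes called 0 to 26 genes when 1 replicate was left out. Same-numbered motor neuron and white matter libraries of SMA hardly deviated together (correlation 0.050 across genes). With no animals named in the labels, this value cannot decide whether such libraries share animals. Xist followed the replicate number in all 4 groups, with 20492 to 64217 reads in replicates 1 and 3 to 107 in replicates 2. Ddx3y, a gene of the Y chromosome, had 0 reads in each replicate 1 and 240 to 3042 in replicates 2. Pairing by animal was not tested. With the replicate number as a block 4249 genes were called, and 0 in the difference between genotypes. Of 247 named genes that were called, 180 were called under all 18 alternatives, 67 lost the call under at least 1, and 0 reversed. With 2 libraries per group, the number of libraries limits the precision.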

Other observations

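Several of the most abundant genes that differed belong to none of the groups above. Tecr, an enzyme that lengthens fatty acids, was at 2337 and 2466 RPKM in SMA motor neurons and 717 and 418 in SMA white matter (2.13 ± 0.27, limma adjusted p = 5.3e-04). Rtn1, a reticulon of the neuronal endoplasmic reticulum, was at 1183 and 1328 RPKM against 278 and 285 (2.15 ± 0.18, adjusted p = 7.6e-05). On the other side, Dbi, which binds acyl-CoA, was at 768 and 614 RPKM against 2592 and 2486 (-1.88 ± 0.20, adjusted p = 2.0e-04), and Fth1, the ferritin heavy chain that stores iron, at 569 and 503 against 1356 and 1649 (-1.48 ± 0.18, adjusted p = 4.8e-04). In all 4 genes the libraries of the regions did not overlap, as in every called gene.

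Genes near absence in 1 region were fewer on the motor neuron side. At least 1 RPKM in both motor neuron libraries and under 0.1 in both white matter libraries was found for 51 genes, and the reverse for 117. Slc5a5, the sodium iodide symporter, was one of the first kind (11.1 and 7.92 RPKM against 0.0353 and 0.0332, limma adjusted p = 1.8e-04).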
